A study of Mus musculus with 6 samples.

Results

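The genes described here are those of the linker histone H1 and of the core histones H2A, H2B, H3 and H4 in BV2 cells, an immortalised mouse microglial line. They were taken by symbol: every row of the deposited annotation whose gene name begins with H2ac, H2bc, H3c, H4c or H1f and ends in a number. This gave 56 of the 25032 genes with at least 1 read: 7 H1, 13 H2A, 15 H2B, 10 H3 and 11 H4 genes. The rule was chosen with earlier results of these data known. BV2 cells overexpressing GFP, the control protein, made up 3 libraries, and BV2 cells overexpressing TDP43-NLS made up the other 3. The series' design text describes the second construct as a TDP-43 with a mutated nuclear localisation signal. TDP-43 binds RNA and sits mainly in the nucleus. The labels name no other allele or agent, and say neither whether the lines are clones nor whether replicates are separate cultures, so p-values measure the spread between these libraries, which may be technical.

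Core histones form the nucleosome, around which DNA is wound, and linker histones bind the DNA where it enters and leaves. Most genes of these classes are transcribed in S phase, when new chromatin is assembled, and their mRNAs end in a conserved stem-loop bound by SLBP instead of in a poly(A) tail. Some histone genes, H1f0 among them, make polyadenylated mRNA outside S phase, and several replication-dependent genes can also make polyadenylated forms. The libraries were prepared from RNA captured on poly-T beads, per the labels' protocols. All values below are therefore of the RNA that passed this capture. How much of each gene's RNA carried a tail was not measured.

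Of the 23 histone genes with enough reads to be tested, 7 were higher and 2 lower in the libraries labelled TDP43-NLS, and 14 were not called by edgeR's quasi-likelihood test at a Benjamini-Hochberg adjusted p under 0.05. Those called were 39.1% of the tested histone genes, against 57.5% of all 13199 genes tested. Calls upward made up 29.3% and calls downward 28.2% of all genes tested. The genes that fell, H4c9 and H3c8, were 2.05-fold and 2.03-fold lower; called falls of at least 1 on the log2 scale made up 3.67% of all genes tested and called rises of that size 6.33%. Per length, H4c9 was the most abundant H4 gene and H3c8 the most abundant H3 gene in both groups. Of the 7 that rose, 5 encode linker histones. H1f4 and H1f8 among these had enough reads for the test through the TDP43-NLS libraries alone, so the tally is a description. In bulk RNA, fewer cells with a transcript and less of it per cell cannot be told apart.

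The stem-loops show how alike the histone genes are at their 3′ ends and how those of the 2 genes that fell compare. A 16-base stem-loop, 6 paired bases around a loop of 4, was found after the stop codon in the transcripts of 37 of the 56 genes, 24 to 46 bases past the stop. Transcripts are those of GENCODE M21 on GRCm38, an earlier build than that of the deposited positions. The stem-loop is in capitals, with 5 bases on either side. The same 16 bases as in H1f2 were found in 21 genes, H3c15 among them. H4c9 shared its 16 bases with H4c14 alone, and those of H3c8, of H4c11 and of H4c1 were each found in no other member.
H4c9, chr13:22040961-22040986, minus strand: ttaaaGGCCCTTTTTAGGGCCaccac
H4c14, chr3:96262934-96262959, minus strand: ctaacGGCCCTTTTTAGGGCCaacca
H3c8, chr13:23535884-23535909, plus strand: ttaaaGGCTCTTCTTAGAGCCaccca
H4c11, chr13:21735432-21735457, plus strand: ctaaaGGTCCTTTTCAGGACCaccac
H3c15, chr3:96238480-96238505, minus strand: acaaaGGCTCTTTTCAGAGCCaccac
H1f2, chr13:23739507-23739532, plus strand: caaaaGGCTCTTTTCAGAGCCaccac

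The loop bases were TTTC in 28 genes, of which 12 were tested, 4 rose (29.3% of all genes tested rose) and 8 were not called. They were TTTA in 5 genes, none of which was tested, and TCTC in H4c1, which was also not tested. The loop was TTTT in H4c9, which fell, and in H4c14, which was not called, and TCTT in H3c8, which fell. H1f4, among the TTTC genes that rose, passed the low-count filter through the TDP43-NLS libraries alone. These are too few genes to set one loop against another, and the calls are listed as a description. H4c9 and H4c14 differ in what follows: the H4c9 transcript runs on for 330 bases after the stem-loop, that of H4c14 for 1257. The H3c8 transcript ends 47 bases after it.

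The promoters of H4c9, H3c8 and H1f2 are shown since these are the most abundant members that fell and the H1 gene with the most reads. Each is the 250 bases before the start in RefSeq's table for GRCm38.p6, read on the gene's strand. Motifs in capitals are TATAAA, the CCAAT box, the octamer ATTTGCAT of H2A and H2B promoters and AAACACA, which is known from H1 promoters, each searched on both strands; none of them is contained in another.
H4c9, chr13:22041363-22041612, minus strand: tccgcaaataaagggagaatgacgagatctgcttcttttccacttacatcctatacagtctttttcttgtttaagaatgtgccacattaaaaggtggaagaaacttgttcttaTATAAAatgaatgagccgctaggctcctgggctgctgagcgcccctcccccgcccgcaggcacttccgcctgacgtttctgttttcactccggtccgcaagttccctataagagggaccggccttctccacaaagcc
H3c8, chr13:23535168-23535417, plus strand: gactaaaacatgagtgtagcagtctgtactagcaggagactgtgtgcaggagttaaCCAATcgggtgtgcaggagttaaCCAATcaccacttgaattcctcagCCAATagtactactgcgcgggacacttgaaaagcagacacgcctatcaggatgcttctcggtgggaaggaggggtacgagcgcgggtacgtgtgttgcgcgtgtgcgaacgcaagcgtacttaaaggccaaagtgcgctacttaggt
H1f2, chr13:23738557-23738806, plus strand: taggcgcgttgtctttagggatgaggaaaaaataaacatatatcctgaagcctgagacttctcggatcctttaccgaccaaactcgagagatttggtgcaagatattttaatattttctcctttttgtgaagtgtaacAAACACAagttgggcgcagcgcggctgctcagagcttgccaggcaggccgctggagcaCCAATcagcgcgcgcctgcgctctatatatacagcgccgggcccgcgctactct

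The 2 genes that fell held different motifs. H4c9 had TATAAA at position -137 from the start and no CCAAT. H3c8 had CCAAT at -194, -171 and -147 and no TATAAA. H1f2, which rose, had CCAAT at -54 and AAACACA at -112. A promoter was found in the table for 49 of the 56 genes, 50 promoters in all. CCAAT was present in 82% of them and in 33.9% of the 32851 promoters of the table, TATAAA in 48% and 12.4%, ATTTGCAT in 18% and 1.60%, and AAACACA in 12% and 6.25%. By class, CCAAT was in all 12 H2A and all 13 H2B promoters but in 3 of 10 H4 promoters, ATTTGCAT only in H2A (4) and H2B (5) promoters, and AAACACA in 4 of 7 H1 promoters. The windows of several H2A genes overlap those of H2B genes on the other strand, as for H2ac11 and H2bc11. A site in such shared DNA was counted for both genes, and H2bc6 was counted with both of its promoters. The shares are thus not of independent sequences.

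Totals ran from 15062131 to 18005592 reads per library, and histone genes took 5413 to 6374 of them, 0.0344% ± 0.00111 (SD, n = 3) in GFP and 0.0358% ± 0.000369 (n = 3) in TDP43-NLS libraries. GFP replicate 2 stood apart from the other 2 GFP libraries, with a chi-square per degree of freedom over genes of 7.12 and 7.19 against 1.20 between those 2. Without it, 8 histone genes rose and 3 fell, against 61.3% of all genes called. Tardbp, the gene for TDP-43, read 451 ± 24.0 CPM (a depth-scaled read level, with TMM) in GFP and 377 ± 9.62 CPM in TDP43-NLS libraries, a fall of 0.26 on the log2 scale (SE 0.05, edgeR adjusted p = 0.000291). The count of this mouse gene thus goes against the label; whether the construct is of mouse sequence is not stated in the labels, and every direction below rests on the labels. All 13 microglia and macrophage markers were read, with a summed level of 2871 to 2940 CPM in GFP and 2557 to 2613 CPM in TDP43-NLS libraries. Neuron markers summed to 0.240 to 0.576 and 1.19 to 1.28 CPM with 4 of 6 at 0 (Rbfox3 and Snap25 among them), astrocyte markers to 0.540 to 1.37 and 0.863 to 0.944 CPM (Aqp4 at 0), oligodendrocyte markers to 3.17 to 5.46 and 3.44 to 5.24 CPM (Mog at 0), and T and B cell markers to 0.230 to 0.716 and 0.133 to 0.222 CPM. The part of the marker differences in the histone results was not tested.

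A few genes held nearly all histone reads. The 5 most read, H1f2, H2bc4, H1f0, H2bc21 and H4c9, took 88.4% of them, and 34 of the 56 genes had under 50 reads over all 6 libraries. Per length, in the authors' FPKM, the highest levels in GFP libraries were those of H2bc4 (79.0 ± 2.87 FPKM), H1f2 (67.1 ± 1.98 FPKM) and H4c9 (46.2 ± 4.95 FPKM), then H1f0 (20.0 ± 1.16), H3c8 (14.9 ± 1.07), H2bc21 (12.4 ± 0.612) and H4c12 (5.54 ± 1.28). In TDP43-NLS libraries H2bc4 (84.5 ± 1.96 FPKM) and H1f2 (80.1 ± 0.694 FPKM) again came first, while H4c9 (22.1 ± 3.07) stood next to H1f0 (22.9 ± 1.09) and within their spread, and H3c8 was at 7.17 ± 0.971. The highest mean of any H2A gene in GFP libraries was 0.538 ± 0.0904 FPKM, that of H2ac6.

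**Figure D1:**
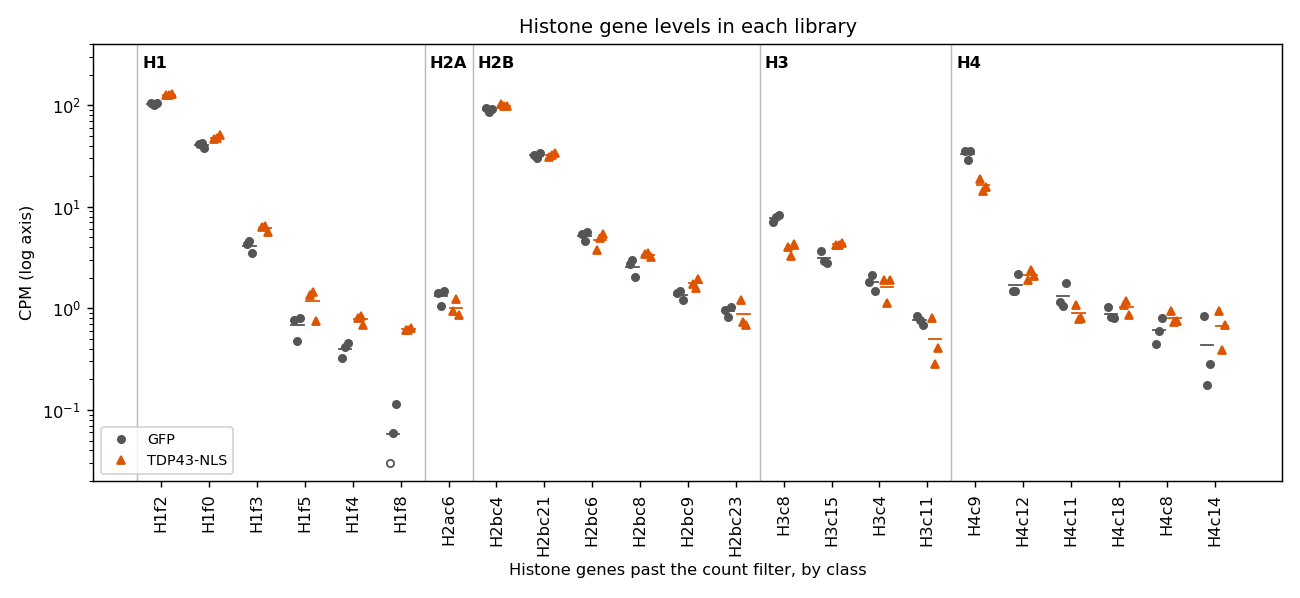
CPM on a log axis of the 23 tested histone genes, by class, in the 3 GFP (circles) and 3 TDP43-NLS (triangles) libraries, with group means as lines; the open circle stands for a library with 0 reads. H4c9 and H3c8 lie lower in every TDP43-NLS library, and H1f2, H1f0, H1f3, H1f4 and H1f8 lie higher. H1f4 and H1f8 passed the low-count filter through the TDP43-NLS libraries alone.

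Linker histones were the class in which most tested members rose: 5 of 6, when 29.3% of all genes tested rose. Their median log2 fold change was 0.68, against 0.00272 over all genes tested. Of the linker histones, H1f4 and H1f8 reached the level of the low-count filter in 3 TDP43-NLS and 0 GFP libraries. They could only be tested because they were high in the TDP43-NLS libraries, and the class count and median are a description. H1f2 (ENSMUSG00000036181, GRCm39 chr13:23922791-23924350, plus strand), a replication-dependent somatic linker histone, read 106, 99.8 and 105 CPM in GFP and 126, 126 and 128 CPM in TDP43-NLS libraries. The groups did not overlap, and the rise was 0.29 on the log2 scale (SE 0.04, edgeR adjusted p = 5.84e-05), from 103 ± 3.24 to 127 ± 1.09 CPM. H1f0 (ENSMUSG00000096210, chr15:78912650-78914704, plus strand), the replacement linker histone of slowly dividing and differentiated cells, read 41.4, 42.5 and 38.1 against 46.0, 47.0 and 50.3 CPM. All TDP43-NLS libraries were above all GFP libraries, by 0.23 on the log2 scale (SE 0.06, adjusted p = 0.00433). H1f3, another somatic linker histone, read 4.31, 4.62 and 3.48 against 6.27, 6.46 and 5.70 CPM, a log2 fold change of 0.57 (SE 0.13, adjusted p = 0.00256) with no overlap.

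The other H1 genes were read far less. H1f4 had 5, 7 and 8 reads in GFP and 12, 15 and 12 in TDP43-NLS libraries, a log2 fold change of 0.95 (SE 0.31, edgeR adjusted p = 0.0243), and its call was lost without GFP replicate 1 (adjusted p = 0.0809), without TDP43-NLS replicate 2 (0.0711) and in DESeq2 (0.146). H1f4 overlaps H2bc6 on the same strand by 496 bases, so reads of the pair cannot be fully assigned; H2bc6 itself, with 77 to 99 reads in GFP and 56 to 93 in TDP43-NLS libraries, had a log2 fold change of -0.14 and was not called. H1f5 had 12, 8 and 14 against 20, 26 and 13 reads, with 1 TDP43-NLS library inside the GFP range, and missed the threshold (log2 fold change 0.79, SE 0.32, adjusted p = 0.0515). It was called without TDP43-NLS replicate 3 (adjusted p = 0.0144). H1f1 had 1 read in GFP and 3 in TDP43-NLS libraries and was not tested.

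H1f8 (ENSMUSG00000042279, chr6:115921899-115927197, plus strand) is the linker histone known from oocytes. It had 0, 1 and 2 reads in the GFP and 9, 11 and 11 reads in the TDP43-NLS libraries. No GFP library came near a TDP43-NLS one, and edgeR's adjusted p was 0.000254. The gene reached the low-count filter's level in 3 TDP43-NLS and 0 GFP libraries, so the gap and the p are a description. At 3 against 31 reads the ratio of the groups after scaling was 10.3 with a 95% exact binomial interval of 3.22 to 52.8, which covers counting error only. All of the 50-base stretches of its transcripts were found in no other gene.

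H2A was read at very low levels. Of 13 genes, H2ac6 alone was tested, with 22, 18 and 26 reads in GFP and 14, 22 and 15 in TDP43-NLS libraries, and it was not called (log2 fold change -0.37, SE 0.25, adjusted p = 0.225). The other 12 summed to 36 and 38 reads in the groups. H2ac14 among them is annotated as an unprocessed pseudogene. In 11 of the 13 H2A genes, under 50% of the 50-base stretches of the transcripts were in no other gene, so most stretches of that length match a second gene. With stretches of 100 bases H2ac15 went above that mark, at 84.0%, and the others of the 11 stayed below it. How reads that match more than 1 gene were counted is not stated in the labels.

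Of 6 tested H2B genes, 1 rose and 5 were not called, when 57.5% of all genes tested were called. H2bc4 (ENSMUSG00000018102, chr13:23868182-23876891, plus strand) read 93.3, 86.6 and 91.1 CPM in GFP and 102, 98.2 and 97.0 CPM in TDP43-NLS libraries, a log2 fold change of 0.13 (SE 0.05, edgeR adjusted p = 0.0268). The groups did not overlap, but the call was lost without GFP replicate 3 (adjusted p = 0.0598), TDP43-NLS replicate 1 (0.0876) or TDP43-NLS replicate 2 (0.0617), with scaling by library totals (0.0944) and in DESeq2 (0.0790). H2bc21, on chromosome 3, read 30.4 to 33.6 CPM in GFP and 30.8 to 33.8 CPM in TDP43-NLS libraries. Its log2 fold change of 0.00 with an SE of 0.06 was the smallest of all tested members. H2bc8 (log2 fold change 0.39, adjusted p = 0.0633) and H2bc9 (0.37, adjusted p = 0.159) had every TDP43-NLS library above every GFP library without passing the test, though H2bc8 passed without GFP replicate 2 (adjusted p = 0.0227). H2bc23 (log2 fold change -0.13, SE 0.29) was not called. In all, 11 of the 23 tested members had groups that did not overlap, 9 with the TDP43-NLS libraries higher and 2 with them lower, against 63.2% of all genes tested (32.0% higher and 31.2% lower). The 9 include H1f4 and H1f8, which passed the low-count filter through the TDP43-NLS libraries alone, so this tally is a description.

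Among 4 tested H3 genes, 1 rose and 1 fell, when 57.5% of all genes tested were called. H3c8 (ENSMUSG00000099517, chr13:23719592-23720121, plus strand) had 111, 135 and 144 reads in GFP and 60, 58 and 74 in TDP43-NLS libraries, or 7.15, 7.99 and 8.21 against 4.05, 3.26 and 4.26 CPM. The highest TDP43-NLS library was well below the lowest GFP library. The mean went from 7.78 ± 0.561 to 3.86 ± 0.528 CPM, 2.03-fold lower (log2 fold change -1.02, SE 0.13, edgeR adjusted p = 1.75e-05). H3c15 (ENSMUSG00000081058, chr3:96145424-96146443, minus strand), which encodes an H3.2 protein, read 3.67, 2.90 and 2.79 against 4.18, 4.16 and 4.43 CPM and rose by 0.46 on the log2 scale (SE 0.15, adjusted p = 0.0177). That call was lost without GFP replicate 3 (edgeR adjusted p = 0.0767), without TDP43-NLS replicate 3 (0.0567) and in DESeq2 (0.0885). Of the 50-base stretches of the H3c15 transcript 36.5% were in no other gene, and of those of 100 bases 38.4%. Its reads are thus hard to assign. H3c4 (log2 fold change -0.15, SE 0.24) and H3c11 (-0.65, SE 0.37) were not called; H3c11 reached the filter's level in 3 GFP libraries and 1 TDP43-NLS library and was called without TDP43-NLS replicate 1 (log2 fold change -1.13, adjusted p = 0.0281).

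All mouse H4 genes of this family encode the same protein, and 1 of the 6 tested was called, against 57.5% of all genes tested. H4c9 (ENSMUSG00000060639, chr13:22224806-22225532, minus strand) had 549, 490 and 617 reads in GFP and 279, 255 and 273 in TDP43-NLS libraries, or 35.4, 29.0 and 35.2 against 18.8, 14.3 and 15.7 CPM. Every TDP43-NLS library was far below every GFP library. The mean went from 33.2 ± 3.62 to 16.3 ± 2.30 CPM, 2.05-fold lower (log2 fold change -1.03, SE 0.10, edgeR adjusted p = 1.57e-06). H4c12 (log2 fold change 0.30, SE 0.21), H4c8 (0.36, SE 0.30), H4c18 (0.24, SE 0.26), H4c14 (0.64, SE 0.50) and H4c11 (-0.60, SE 0.28) were not called. H4c11 was called without GFP replicate 2 (log2 fold change -0.75, adjusted p = 0.0310) and H4c14 without GFP replicate 1 (1.48, adjusted p = 0.0310). Of the 50-base stretches of the H4c9 transcript 71.1% were in no other gene, and of the H3c8 transcript 46.0%. For stretches of 100 bases the shares were 84.9% for H4c9 and 62.9% for H3c8.

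**Figure D2:**
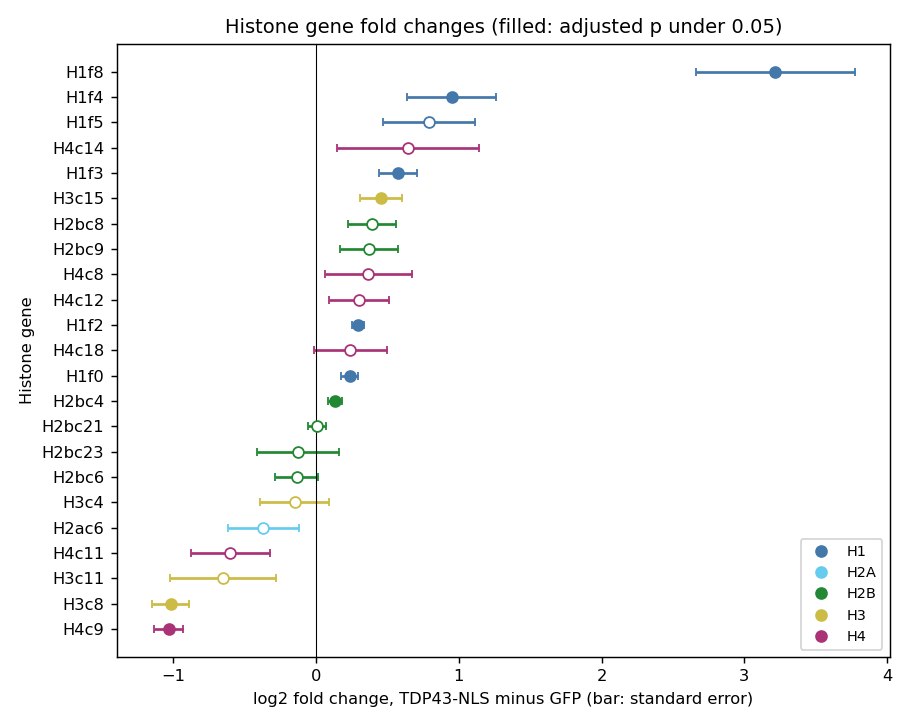
Log2 fold change (TDP43-NLS minus GFP) with its standard error for the 23 tested histone genes, coloured by class and filled where the edgeR adjusted p was under 0.05. H4c9 and H3c8 are the only filled points below 0, and 5 of the 7 filled points above 0 are H1 genes. H1f4 and H1f8 among these passed the low-count filter through the TDP43-NLS libraries alone.

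Summed by class, the levels followed the most abundant gene. H4 genes together went from 39.4 ± 4.58 to 22.9 ± 2.53 CPM (n = 3 each), while H4 genes other than H4c9 read 6.17 ± 1.05 and 6.66 ± 0.404 CPM. The share of H4c9 in the H4 sum was 85.0%, 85.1% and 83.0% in GFP and 72.8%, 68.0% and 71.7% in TDP43-NLS libraries. H3 genes together went from 15.03 ± 0.263 to 11.2 ± 1.56 CPM, and without H3c8 they read 7.25 ± 0.594 and 7.37 ± 1.06 CPM. H3c8 gave 47.8%, 52.1% and 55.4% of the H3 sum in GFP and 35.7%, 33.9% and 33.5% in TDP43-NLS libraries. Among the H3 genes other than H3c8, members went both ways: H3c15 rose, while H3c11, not called, had fewer reads in TDP43-NLS libraries. The H3 genes too low to test summed to 1.48, 1.54 and 1.65 CPM in GFP libraries. In TDP43-NLS libraries they summed to 0.405, 0.787 and 1.73 CPM, and among them H3c7 and H3c1 had more reads there. In CPM, H3c15 (4.26 ± 0.153) was above H3c8 (3.86 ± 0.528) in the TDP43-NLS libraries. For both transcripts under 50% of the 50-base stretches were in no other gene, so this order is uncertain. The H1 sum was 149 ± 2.83 against 183 ± 2.57 CPM, and without H1f2 it was 46.0 ± 2.64 against 56.6 ± 1.53 CPM. The H2B sum was 134 ± 5.38 against 144 ± 0.905 CPM and the H2A sum 2.04 ± 0.292 against 1.79 ± 0.253 CPM. No test was made of these sums.

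**Figure D3:**
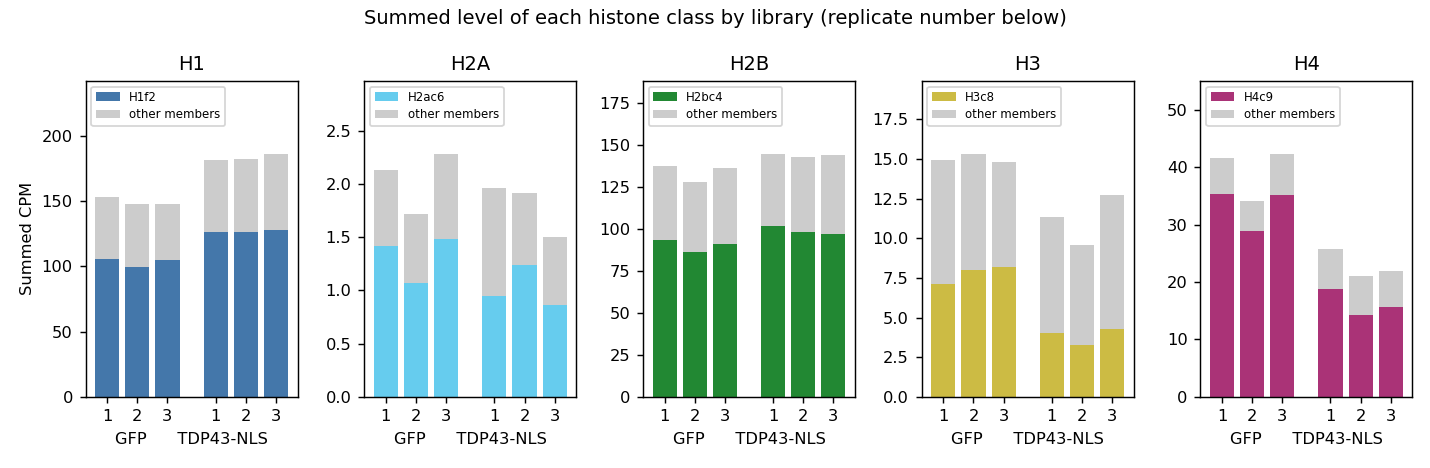
Summed CPM of each histone class in each library (bars, linear axes from 0, one scale per class), with the gene of the class with the most reads over all libraries in colour and the other members in grey. The grey part differs little between groups for H3 and H4, whose coloured parts, H3c8 and H4c9, are lower in all 3 TDP43-NLS libraries.

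The 33 histone genes below the filter on low counts had 1 to 49 reads each over all libraries and at most 15 in any one. They summed to 252 reads in the GFP and 252 in the TDP43-NLS libraries. More reads were in TDP43-NLS libraries for 12 of them, fewer for 18 and as many for 3. The H3 genes among them had 78 and 50 reads, with H3c3 at 32 and 17 and H3c6 at 11 and 2. H3c7, at 6 and 10, and H3c1, at 4 and 6, went the other way. The H2B genes had 77 and 104 reads, the H4 genes 60 and 57. Fitted without the filter, H2bc11 (13 against 30 reads, edgeR adjusted p = 0.0408) and H2ac7 (4 against 18 reads, adjusted p = 0.0192) were called higher, as was H1f5 (adjusted p = 0.0339), which is above the filter. In that fit 12 of the 56 members were called, against 33.0% of all genes with a read.

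The gene models ran on past the stop codon to very different lengths, and members with longer ones more often had enough reads to be tested. A poly(A) signal AATAAA after the stop codon of the longest transcript was found in 16 genes, of which 12 had enough reads to be tested, with a median of 0.551 FPKM in GFP libraries. Of the 40 without it, 11 were tested and the median was 0.280 FPKM. H2ac14, counted among the 40, has no stop codon in its model. Among genes with a stem-loop, 12 of the 18 whose transcript runs over 100 bases past it were tested, and 3 of the 19 whose transcript ends sooner. Longer gene models also collect more reads at a given level, so the tested share is not a measure of the level. H1f0, H2bc4, H2bc21 and H1f8 had AATAAA and no stem-loop, and H1f2 had both, with AATAAA 20 bases from the end of its transcript. The H1f2 signal is shown, in capitals, since this is the most read histone gene and has a stem-loop as well.
H1f2, poly(A) signal: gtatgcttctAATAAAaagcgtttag

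H4c9 and H3c8 belonged to the other kind, with a stem-loop and no AATAAA in their gene models, and ranked behind H2bc4 and H1f2 (H4c9) and behind H1f0 (H3c8) per length in GFP libraries. H3c15, H2bc8 and H4c18 also had a stem-loop without AATAAA. Of the 8 tested genes of that kind, H4c9 and H3c8 fell and H3c15 and H1f4 rose. Over all genes tested, 57.5% were called, 29.3% higher and 28.2% lower. H1f4 passed the low-count filter through the TDP43-NLS libraries alone, so the tally is a description. Other tail signals were not searched, and 9 of the 56 models end at the stop codon, so that no 3′ end could be read from them.

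**Figure D4:**
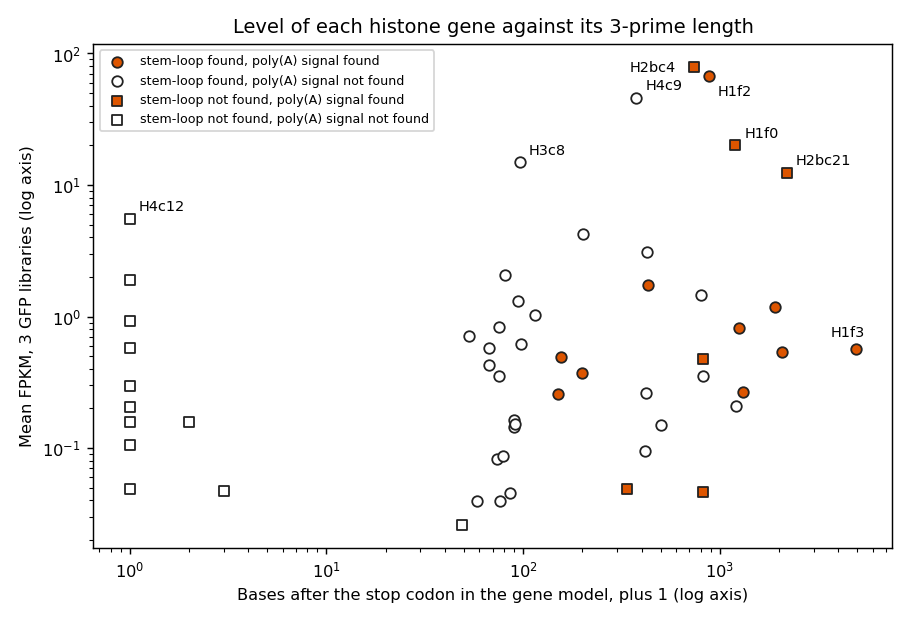
Mean FPKM in the 3 GFP libraries (log axis) against the bases after the stop codon in the gene model plus 1 (log axis) for the histone genes. H2ac14, whose model has no stop codon, is left out. Circles have a stem-loop and squares none, and filled points have a poly(A) signal. H2bc4, H1f2, H1f0 and H2bc21 are filled and high, while H4c9 and H3c8 are high without a poly(A) signal in the model.

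Nearly all members lie in 2 clusters on chromosome 13 and 1 on chromosome 3. The cluster at GRCm39 chr13:23715220-23948389 held 27 members, of which 11 were tested, 4 rose and 1, H3c8, fell. That at chr13:21899933-22227846 held 24 members, of which 7 were tested, 1, H4c9, fell and 6 were not called. Over all genes tested, 29.3% were called higher and 28.2% lower. H4c9 and H3c8 lay 1494 kb apart, 1 in each cluster. The nearest tested members on either side of H3c8 were not called: H4c8, 3902 bases before it, had a log2 fold change of 0.36 and H2bc9, 5762 bases after it, one of 0.37. The 3 members on chromosome 3 (chr3:96128435-96170627) were all tested, and H3c15 rose. H1f0 on chromosome 15 and H1f8 on chromosome 6 lay alone, and both rose. H1f8, and H1f4 in the cluster that holds H3c8, passed the low-count filter through the TDP43-NLS libraries alone. The tallies by place are therefore a description.

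The genes around the clusters gave the local background. Of all genes tested, 29.3% rose and 28.2% fell. Within 1 Mb of the cluster that holds H3c8, 6 other genes were tested, of which 4 fell and 2 were not called, with a median log2 fold change of -0.38. Among them Hfe, an iron-regulating MHC-like gene inside the cluster, fell by 1.13 on the log2 scale (edgeR adjusted p = 1.39e-07), and Gmnn, which encodes the replication inhibitor geminin, fell by 0.56 (adjusted p = 1.63e-05). Within 1 Mb of the cluster that holds H4c9, 2 of 10 rose and 3 fell (median -0.08), and Prss16, a protease gene inside it, rose by 1.08 (adjusted p = 0.000188). These 3 genes were named after their values were seen. Over the other 484 tested genes of chromosome 13, 84 rose and 184 fell, with a median of -0.13, against 0.01 for the other 671 of chromosome 3. Around the chromosome 3 cluster 19 of 58 rose and 9 fell.

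Histone mRNA is made and its end cut by a small set of factors. Of 35 genes for 3′ end formation and turnover, 34 were tested, 4 rose and 12 fell (47.1% called, against 57.5% of all genes tested, with 29.3% higher and 28.2% lower; median log2 fold change -0.09). Slbp, which binds the stem-loop, was not called, at 53.4 ± 0.539 CPM in GFP and 49.7 ± 4.35 CPM in TDP43-NLS libraries (log2 fold change -0.10, SE 0.06, edgeR adjusted p = 0.180). Npat, the histone gene coactivator, fell from 53.7 ± 2.65 to 42.2 ± 2.41 CPM (adjusted p = 0.000246). Of the U7 snRNP, which guides the cut, Lsm11 fell from 39.2 ± 2.65 to 29.1 ± 2.05 CPM (adjusted p = 0.000143) and Lsm10 rose from 10.1 ± 1.002 to 15.6 ± 0.263 CPM (adjusted p = 4.59e-05). Casp8ap2, a component of histone locus bodies, had a log2 fold change of 0.18 (adjusted p = 0.0366), and this call was lost whichever single library was left out other than GFP replicate 2. Ncbp2, the small subunit of the cap-binding complex, fell from 118 ± 5.31 to 68.1 ± 3.31 CPM and Srrt, its partner, from 356 ± 10.9 to 260 ± 7.67 CPM.

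Of 28 genes for histone gene activation and entry into S phase, 27 were tested, 8 rose and 8 fell (59.3% called, against 57.5% of all genes tested; median 0.06). Cdc25a, a phosphatase that drives entry into S phase, fell from 111 ± 0.700 to 70.8 ± 3.32 CPM, and Cdkn1a, a cyclin-dependent kinase inhibitor, rose from 18.1 ± 0.887 to 85.9 ± 1.26 CPM. Cdkn1c, another such inhibitor, had 1, 4 and 4 reads in GFP and 38, 39 and 41 in TDP43-NLS libraries, and so passed the low-count filter through the TDP43-NLS libraries alone. Of 42 genes for DNA synthesis, all were tested, 5 rose and 24 fell (69.0% called, against 57.5% of all genes tested, of which 28.2% lower; median -0.16). Dnmt1, the maintenance DNA methyltransferase, fell from 622 ± 34.1 to 314 ± 11.4 CPM. Of 30 histone chaperone and chromatin assembly genes, 29 were tested, 4 rose and 15 fell (65.5% called, against 57.5%; median -0.15). Ipo4, an importin for H3 and H4, rose from 42.9 ± 3.07 to 68.6 ± 2.27 CPM, and Cdan1, a partner of the chaperone ASF1, fell from 39.0 ± 0.696 to 26.2 ± 1.10 CPM.

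Histone variants outside the naming rule, which are made from polyadenylated mRNA for the most part, were a list of 16. Of these 8 were tested and 6 fell (75% called, when 28.2% of all genes tested were lower; median -0.18), and the other 2, H3f3b (log2 fold change 0.10) and H2az2 (0.14), were not called. H2ax, the variant phosphorylated at DNA breaks, fell from 122 ± 1.62 to 91.3 ± 2.74 CPM (log2 fold change -0.42, edgeR adjusted p = 2.71e-06). H2az1 fell from 597 ± 26.9 to 475 ± 11.6 CPM (adjusted p = 2.40e-05) and H2aj from 21.4 ± 3.63 to 14.2 ± 1.63 CPM (adjusted p = 0.00106). Cenpa, the centromeric H3, fell by 0.20 on the log2 scale (adjusted p = 0.00170). The median of the 23 tested members was 0.24, with 15 above 0 and 8 below. H1f4 and H1f8 among those above 0 passed the low-count filter through the TDP43-NLS libraries alone. The median and the split are therefore a description.

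**Figure D5:**
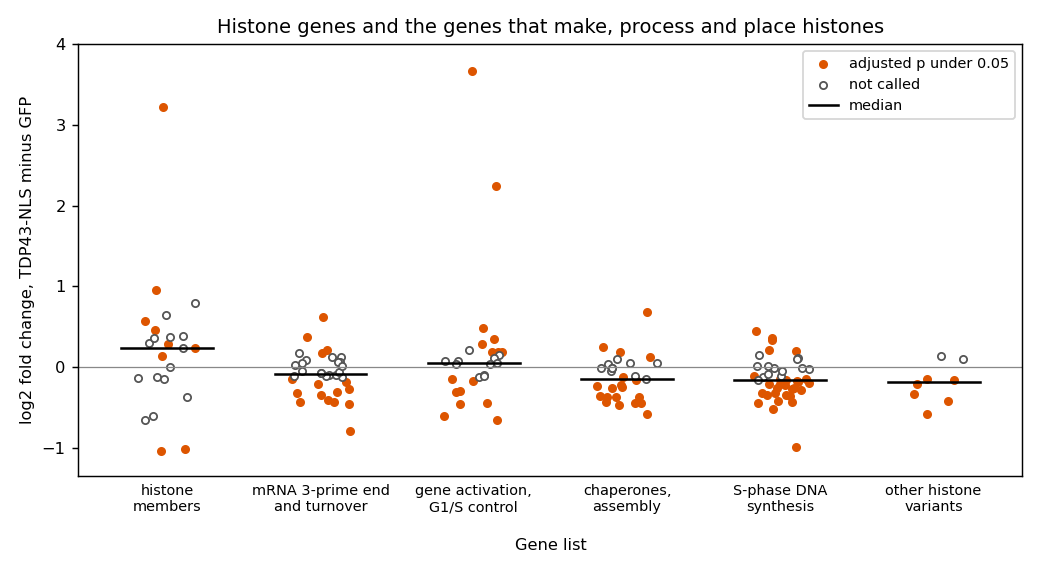
Log2 fold change (TDP43-NLS minus GFP) of each tested gene in the histone genes and in 5 related lists; filled points had an edgeR adjusted p under 0.05, and lines mark medians. The median is 0.24 for the histone genes and lies between -0.18 and 0.06 in the other lists. The histone genes include H1f4 and H1f8, which passed the low-count filter through the TDP43-NLS libraries alone, so the medians are a description.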

How the data were processed

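Poly(A)-captured RNA of BV2 cells was sequenced in 6 libraries, 3 GFP and 3 TDP43-NLS, grouped by their labels. The deposited count table gives reads per gene for 55359 genes. The deposited FPKM table gives the authors' length- and depth-scaled values of the same counts, which were used for levels between genes. In the submitters' processing notes the tools were Bowtie2 2.2.3, HISAT2 2.1.0 and HTSeq 0.6.0 and the build GRCm39; the role of each is not stated. Nothing used here gives the handling of strand or of multiply matching reads, so values of near-identical histone genes are uncertain.

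Counts were tested with edgeR 4.0.16 (R 4.3.3): filterByExpr (10 reads, 15 in total), TMM, quasi-likelihood test, two-sided, group as the only term, Benjamini-Hochberg adjustment over 13199 genes. The test was checked on simulated data. Of the alternatives, DESeq2 1.42.0, other scaling, no filter, a replicate block, a test against a log2 fold change of 0.5 and each library left out were run. Depth limits genes of few reads: 17 members had at least 10 reads in every library. Exact permutation of 3 against 3 cannot go below p = 0.1.

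Stem-loops and AATAAA were searched in GENCODE M21 transcripts (GRCm38); the deposited gene length matched one for 52 of 56 members. Coordinates of the 2 builds were not mixed. Members, gene lists and tests were chosen with earlier results of these data known. All tested members are described, members below the filter by summed reads, and from each related list at most the 4 called genes of smallest adjusted p, plus Slbp, Npat, Casp8ap2 and Lsm11.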

Additional observations from a re-analysis of the deposited data

How the results depend on the processing

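H4c9 (log2 fold change -1.14 to -0.94, edgeR or DESeq2 adjusted p up to 0.000189) and H3c8 (-1.09 to -0.90, adjusted p up to 0.00162) were called lower under all 12 alternatives. H1f8 was called higher (edgeR or DESeq2 adjusted p up to 0.00293) under the 10 in which it was tested. Without TDP43-NLS replicate 2 or 3 it did not pass the filter. In the main fit H1f8 passed the filter through the TDP43-NLS libraries alone, so its calls are a description. H1f0, H1f2 and H1f3 lost their calls only when tested against a log2 fold change of 0.5. Histone genes called higher numbered 4 in DESeq2 (49.6% of all genes called either way), 1 against a log2 fold change of 0.5 (14.9%), 10 of 56 without the filter (33.0%) and 4 to 8 with 1 library left out (50.1% to 61.3%), the 4 without TDP43-NLS replicate 2; those called lower numbered 2 to 3. Against 0.5, 1221 of all genes were called higher and 744 lower; of the related lists 0 and 1 for 3′ end formation, 2 and 1 for activation, 1 and 0 for chaperones, 0 and 1 for DNA synthesis, and 0 lower for other variants. This test asks for a larger change by construction. Higher 3′ end formation genes numbered 3 to 8 with 1 library left out, the 8 without GFP replicate 2, and without the filter 1 other variant was higher. The replicate numbers did not pair the libraries (same-number correlations of -0.17, 0.01 and 0.12), and a replicate block left 9 histone genes called, with 57.0% of all genes. Without its most abundant gene, the log2 ratio of summed CPM was 0.10 for H2A, 0.023 for H3 and 0.11 for H4, each with its sign turned, and 0.039 for H2B; with library totals that of H1 was 0.26. Among genes not called, H2bc21 turned to -0.033 with library totals and ranged from -0.038 to 0.039 with 1 library left out, below 0 without GFP replicate 2 (-0.038) or TDP43-NLS replicate 3 (-0.023); H3c4 ranged from -0.28 to 0.079, above 0 without TDP43-NLS replicate 2, and H2bc23 from -0.39 to 0.028, above 0 without TDP43-NLS replicate 3; the cause was not tested.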
